A study of Mus musculus with 58 samples.

Results

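The vascular endothelial growth factor (VEGF) and angiopoietin genes were followed in whole mouse retinas over the day, in control and diabetic males. The 10 genes were chosen by symbol among 52459 symbols of the count table. They were the VEGF ligands Vegfa, Vegfb and Pgf, the VEGF receptors Kdr and Flt1 with the co-receptor Nrp1, the angiopoietins Angpt1 and Angpt2, and their receptors Tek and Tie1. Control mice were males labelled C57/BL/6, the littermates without the Akita phenotype. Diabetic mice were males labelled C57BL/6-Ins2Akita/J, heterozygous for a dominant mutation of the insulin gene Ins2 that kills pancreatic beta cells, with blood glucose above 250 mg/dL. All mice were 4 months old, lived in 12 h of light and 12 h of darkness, and were perfused with phosphate-buffered saline before the retinas were taken, under dim red light at night. Retinas were taken at Zeitgeber times (ZT, hours after lights on) 1, 5, 9, 13, 17 and 21, with 4 to 6 control and 4 or 5 diabetic retinas at each, 30 and 28 in all. The diabetes of this line starts in young animals and is not confined to the eye, and whole retinas held neurons, glia and vessels together. The study calls the retinas biological replicates, but the labels do not say which animal each came from, so p-values measure the spread between these retinas.

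VEGF ligands are secreted proteins that bind receptor tyrosine kinases on endothelial cells, where KDR carries most of the growth and permeability signal and FLT1 binds the ligands tightly and also acts as a decoy. Angiopoietin 1, made by cells around the vessels, activates the receptor TEK (also called TIE2) and keeps vessels quiet, whereas angiopoietin 2, made by endothelial cells, mostly antagonises it. TIE1 is a relative of TEK with no firmly known ligand of its own that modulates TEK signalling. In the retina the VEGF made by glia and neurons under low oxygen is the best known driver of vessel leakage and growth in diabetic eye disease.

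Libraries held 7773117 to 22147398 reads on genes, with a median of 15406440, and the ZT17 libraries were the deepest by median (16276456 in control and 19780322 in diabetic retinas). Rod markers took 33923 to 52459 counts per 1000000 reads (CPM) of each library. The 10 endothelial markers summed to 56.2 to 80.9 CPM and the 7 pericyte markers to 93.2 to 130.1 CPM, and every one of them was detected. In 3 control libraries (ZT1 replicate 6, ZT17 replicate 5 and ZT21 replicate 2) lens crystallin markers reached 2837, 1867 and 2112 CPM, against at most 65.1 CPM in the other 55. Where leaving them out moved a p given below across 0.05 or turned a direction, the value without them is given beside it.

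All 10 genes had reads in every library. Values below are normalised read counts, which are the counts of a library divided by its size factor. Levels of different genes were compared per kilobase (kb) of exon, on the Gencode gene models of build GRCm38. Vegfa stood highest with a mean of 466 ± 48.6 normalised counts per kb (SD, n = 58), and Kdr followed with 311 ± 24.2. Vegfb had 272 ± 47.6 and Flt1 had 149 ± 12.8 normalised counts per kb. These 4 genes were far above the others: Flt1 was 7.18 times the next gene, Tek, and their ranges did not overlap. From which cells of the retina the reads of each gene came was not tested. Tek had 20.7 ± 2.58, Nrp1 18.2 ± 2.33 and Tie1 10.2 ± 1.77 normalised counts per kb. The lowest levels were those of Angpt2 with 9.24 ± 2.26, Angpt1 with 3.19 ± 0.873 and Pgf with 2.52 ± 1.26. Neighbours in this order overlapped in range except Vegfb with Flt1 and Flt1 with Tek. Kdr stood above Vegfb in 47 of 58 libraries, Tek above Nrp1 in 44, Tie1 above Angpt2 in 37 and Angpt1 above Pgf in 42, so these pairs did not differ beyond their spread in every retina.

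**Figure D1:**
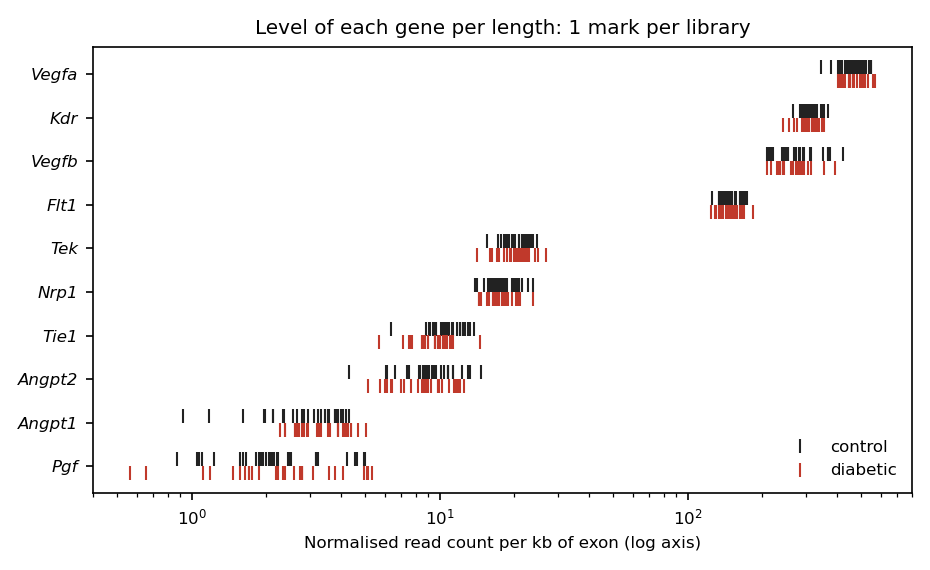
Level of each gene in every library, in normalised read counts per kb of exon on a log axis, with 1 mark per library, black for control and red for diabetic retinas. Vegfa, Kdr, Vegfb and Flt1 sit at 124 and above, and the other 6 genes sit at 26.9 and below.

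Vegfa (ENSMUSG00000023951, chr17:46016993-46032369, minus strand) encodes the main angiogenic ligand of the family. Over all time points it had a lowest, median and highest normalised count of 1482, 1955 and 2352 in control and of 1729, 1989 and 2430 in diabetic retinas. Vegfb (ENSMUSG00000024962, chr19:6982473-6987651, minus strand) encodes a ligand of FLT1. Its values were 334, 407 and 680 in control and 336, 433 and 629 in diabetic retinas. Pgf (ENSMUSG00000004791, chr12:85166635-85177790, minus strand) encodes placental growth factor, another FLT1 ligand. It rested on 1 to 19 reads per library, and counting error alone is large there. Its values were 2.52, 6.05 and 14.5 in control and 1.64, 6.86 and 15.4 in diabetic retinas. The ranges of the genotypes overlapped in all 3 ligands, and the 2 lowest Vegfa values were those of control retinas.

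Kdr (ENSMUSG00000062960, chr5:75932827-75978458, minus strand) and Flt1 (ENSMUSG00000029648, chr5:147561604-147726011, minus strand) lie on the same chromosome. Kdr had a lowest, median and highest normalised count of 2389, 2841 and 3314 in control and of 2179, 2816 and 3191 in diabetic retinas. Flt1 had 1689, 1958 and 2345 in control and 1677, 2020 and 2484 in diabetic retinas. These were the least variable of the 10 genes, with a coefficient of variation of 7.81% for Kdr and 8.57% for Flt1 over all libraries. Nrp1 (ENSMUSG00000025810, chr8:128358604-128503363, plus strand) encodes neuropilin 1, which binds VEGF and also guides axons. It had 135, 175 and 232 in control and 141, 176 and 233 in diabetic retinas.

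Promoter windows are shown for Vegfa, Kdr and Flt1, the abundant ligand and receptors that were rhythmic in control retinas (described further on). Each runs from 250 bases before to 50 bases after a RefSeq transcript start on GRCm38.p6, 5′ to 3′ on the gene's strand. Capitals mark GGGCGG, the SP1 box, and GCGTG, a core of the hypoxia response element, on either strand, so that they also appear as CCGCCC and CACGC.
Vegfa, chr17:46032328-46032627, minus strand: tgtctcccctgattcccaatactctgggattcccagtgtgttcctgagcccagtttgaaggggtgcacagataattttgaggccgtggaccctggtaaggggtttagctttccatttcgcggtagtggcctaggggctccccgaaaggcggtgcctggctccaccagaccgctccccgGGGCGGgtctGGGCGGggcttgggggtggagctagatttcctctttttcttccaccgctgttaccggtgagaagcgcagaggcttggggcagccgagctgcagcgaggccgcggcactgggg
Kdr, chr5:75978406-75978705, minus strand: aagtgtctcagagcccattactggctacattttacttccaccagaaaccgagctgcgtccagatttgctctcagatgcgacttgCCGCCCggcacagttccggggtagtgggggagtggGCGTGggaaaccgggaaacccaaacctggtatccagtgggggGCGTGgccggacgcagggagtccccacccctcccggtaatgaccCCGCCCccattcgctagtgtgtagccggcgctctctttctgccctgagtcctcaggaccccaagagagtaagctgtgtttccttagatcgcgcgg
Flt1, chr5:147725962-147726261, minus strand: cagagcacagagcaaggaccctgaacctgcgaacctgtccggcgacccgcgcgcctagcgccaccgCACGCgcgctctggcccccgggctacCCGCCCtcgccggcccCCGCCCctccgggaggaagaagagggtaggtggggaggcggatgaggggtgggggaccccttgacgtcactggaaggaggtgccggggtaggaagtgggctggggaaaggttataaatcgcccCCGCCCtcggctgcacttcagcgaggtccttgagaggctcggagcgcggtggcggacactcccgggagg

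RefSeq gave 10 such windows for 8 of the 10 genes. The windows of Vegfa, Kdr and Flt1 shown above held 2, 2 and 3 SP1 boxes, and those of Kdr and Flt1 held 2 and 1 GCGTG cores. Over all 32851 promoter windows, 35.7% held GGGCGG, 32.4% held GCGTG and 19.6% held ACGTG, the other hypoxia core searched. Among the other windows, a second one of Vegfa (chr17:46025114-46025413) held 1 GCGTG, 1 ACGTG and 1 SP1 box, and GCGTG was also in windows of Vegfb, Pgf and Nrp1. The E-box CACGTG, read by the clock activators, was in 7.15% of all windows, and it contains ACGTG. The D-box TTANNTAA was in 6.00% and AGGTCA, the letters of the ROR element, in 16.3% of all windows. None of the 10 windows held the E-box or the D-box, and AGGTCA was in those of Vegfb and Nrp1. A match is only a match of letters, and its absence concerns these 300 bases alone.

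Angpt1 (ENSMUSG00000022309, chr15:42424723-42676977, minus strand) and Angpt2 (ENSMUSG00000031465, chr8:18690263-18741562, minus strand) were low in whole retina, with 4 to 37 and 15 to 60 reads per library. Angpt1 had a lowest, median and highest normalised count of 4.81, 15.7 and 22.4 in control and of 11.8, 17.2 and 26.3 in diabetic retinas. The control retinas reached lower and the diabetic retinas higher, with a wide overlap. Angpt2 had 15.9, 34.5 and 54.2 in control and 18.9, 32.5 and 46.4 in diabetic retinas. Angpt1 shares 737 exon bases with the antisense gene Gm17473, which had a mean of 0.345 reads, and Angpt2 lies inside Mcph1 on the other strand with no exon base shared. Whether reads were counted by strand is not given in the sources used here.

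Tek (ENSMUSG00000006386, chr4:94739289-94874976, plus strand) had 73.4, 103 and 116 normalised counts as its lowest, median and highest in control and 66.7, 97.0 and 127 in diabetic retinas. Tie1 (ENSMUSG00000033191, chr4:118471191-118490061, minus strand) had 31.2, 52.8 and 67.8 in control and 27.9, 47.0 and 71.6 in diabetic retinas. The middle of the Tie1 values lay lower in diabetic retinas, and the ranges overlapped.

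The first comparison asked whether diabetic and control retinas differed over all time points. Of the 10 genes, 9 passed the filter on low counts and Pgf did not. In bulk retina, fewer cells of a type and less RNA per cell cannot be told apart. None of the 9 differed after adjustment over all genes in edgeR's quasi-likelihood test, where 3.41% of 17317 genes did, and none did in DESeq2. At an unadjusted p under 0.05 there were 2 genes in either tool, Tie1 and Angpt1 in edgeR, beside 16.2% of all genes. The median log2 difference of the 9 genes was -0.02, and that of all genes was 0.0023.

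Tie1 had a mean of 46.8 ± 8.32 normalised counts in diabetic (SD, n = 28) and 53.6 ± 7.84 in control retinas (SD, n = 30). Its log2 fold, diabetic over control, was -0.20 (95% interval -0.33 to -0.07), with an edgeR p of 0.00297 and an adjusted p of 0.0698. The diabetic mean was the lower at 5 of the 6 time points. The adjusted edgeR p was 0.0300 without control ZT1 replicate 3, 0.0236 without diabetic ZT9 replicate 3 and 0.0339 without all ZT1 libraries. It was 0.244 without ZT13 and 0.253 without ZT17. The result therefore lay on either side of the threshold, depending on single libraries.

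Angpt1 was at 17.9 ± 4.06 normalised counts in diabetic (SD, n = 28) and 15.4 ± 4.70 in control retinas (SD, n = 30). Its log2 fold was 0.22 (95% interval 0.01 to 0.44), with an edgeR p of 0.0427 and an adjusted p of 0.288. The diabetic mean was the higher at 5 of the 6 time points. The unadjusted edgeR p was 0.0766 without the 3 libraries with lens RNA, 0.0553 with a replicate block, 0.0596 with a time point term and 0.0501 without the filter on low counts. It was between 0.0512 and 0.184 without each time point other than ZT9.

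For the abundant genes the intervals were narrow around 0. The log2 fold of Vegfa was 0.04 (95% interval -0.04 to 0.12), that of Kdr was -0.02 (-0.08 to 0.04) and that of Flt1 was 0.01 (-0.05 to 0.08). Intervals were wider for Vegfb at -0.02 (-0.14 to 0.10), Nrp1 at -0.01 (-0.11 to 0.09) and Tek at -0.05 (-0.15 to 0.05). Angpt2 at -0.10 had the interval -0.29 to 0.08. Without the 3 libraries with lens RNA the log2 fold of Nrp1 was 0.014 (adjusted p = 0.941 in edgeR), on the other side of 0. A difference larger than these limits was not seen for any of the 7, and smaller ones could not be resolved.

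**Figure D2:**
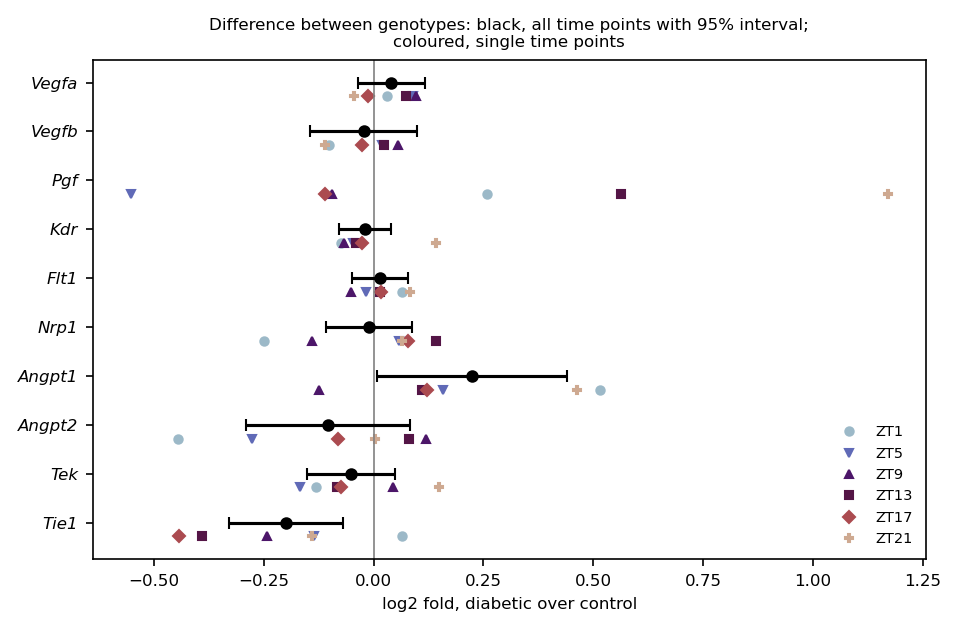
Log2 fold, diabetic over control, of each gene. Black points with bars give the edgeR estimate over all time points with its 95% interval (Pgf was not tested there), and coloured symbols below give the 6 single time points. In this fit only the intervals of Angpt1 and Tie1 leave out 0, that of Angpt1 by 0.0071, and the largest single value is that of Pgf at ZT21.

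The second comparison set the genotypes against each other at each time point, 60 tests in all for the 10 genes. None passed adjustment in edgeR, where 0.0354% of all gene tests did, and none did in DESeq2. At an unadjusted p under 0.05 there were 6 of 60 in edgeR, beside 5.69% of all gene tests, and 6 in DESeq2. The groups did not overlap in 1 of the 60, Tie1 at ZT13, beside 1.34% of all gene tests. Across the 60, the diabetic mean was higher in 30 and lower in 30.

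At ZT13 Tie1 had 51.7, 52.5, 55.04, 59.5 and 67.8 normalised counts in the control group against 41.9, 42.9, 44.0 and 46.8 in the diabetic group. Every control retina stood above every diabetic retina. At ZT17 it had 49.9, 51.7, 53.6, 59.4 and 59.5 in control and 27.9, 37.0, 41.9 and 54.8 in diabetic retinas. Here 1 diabetic retina lay among the controls and the other 3 lay below them. The log2 fold was -0.39 (95% interval -0.73 to -0.05) at ZT13 and -0.44 (-0.77 to -0.12) at ZT17. The unadjusted edgeR p was 0.0258 and 0.00904.

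At ZT1 Angpt2 had 32.8, 34.5, 37.4, 48.5 and 54.2 normalised counts in control and 21.2, 22.2, 33.0, 34.1 and 40.3 in diabetic retinas. The groups overlapped, with the 2 highest values in control and the 2 lowest in diabetic retinas. Its log2 fold was -0.44 (95% interval -0.83 to -0.06), with an unadjusted edgeR p of 0.0262, which was 0.0193 without the lens libraries. Angpt1 at the same time had 8.39, 12.1, 12.2, 19.6 and 21.9 in control and 17.3, 20.3, 20.3, 21.99 and 26.3 in diabetic retinas. Its log2 fold was 0.52 (-0.01 to 1.04), with an unadjusted edgeR p of 0.0528. At ZT1 the Angpt2 mean was thus lower and the Angpt1 mean higher in diabetic retinas, neither past adjustment.

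Nrp1 at ZT1 had a log2 fold of -0.25 (95% interval -0.47 to -0.03) and an unadjusted edgeR p of 0.0261. That p was 0.0682 without the lens libraries, of which control ZT1 replicate 6 held the highest control value (221), and 0.0877 with a replicate block. Kdr at ZT21 had 2589, 2691, 2728 and 2752 normalised counts in control and 2702, 2905, 2986, 3060 and 3191 in diabetic retinas. Its log2 fold was 0.14 (0.01 to 0.28), with an unadjusted edgeR p of 0.0421 (0.0531 without the lens libraries), and it was the only time point at which the Kdr mean was higher in diabetic retinas. Pgf at ZT21 had 2.52, 3.21, 4.81 and 5.95 in control and 4.54, 6.49, 8.95, 11.8 and 15.4 in diabetic retinas. Its log2 fold was 1.17 (0.23 to 2.11) on 2 to 18 reads per library, with an unadjusted edgeR p of 0.0158 (0.0488 without the lens libraries). Angpt1 at ZT21 had an unadjusted edgeR p of 0.0986, and of 0.0407 without the lens libraries, with log2 folds of 0.46 and 0.62. The Kdr and Pgf groups overlapped at their edges.

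Markers of other cells also differed between genotypes at these times at an unadjusted edgeR p under 0.05, none past adjustment. At ZT13, where Tie1 was lower, 6 of 7 pigment epithelium markers had a log2 fold above 0 (median 0.59, 1 with such a p), and the tested blood marker, the haemoglobin gene Hbb-bs, was at 3.11 with such a p. At ZT17 the log2 fold was below 0 in 6 of 7 pigment epithelium markers (median -0.43, 2 with such a p) and in all 5 microglia markers (median -0.10, none with such a p). At ZT21 it was above 0 in 6 of 7 pericyte markers (median 0.05), 2 of them with such a p (0 without the lens libraries), as had 1 endothelial, 1 astrocyte and 1 pigment epithelium marker. At ZT1 it was below 0 in 6 of 7 pericyte markers (median -0.15), none with such a p. At ZT1 all 7 Muller glia (median -0.06) and all 5 microglia markers (median -0.21) were below 0 as well, where Angpt2 and Nrp1 were lower. Of these 1 Muller glia marker had such a p, as had 1 endothelial and 1 pigment epithelium marker (0 pigment epithelium markers without the lens libraries, where 1 Muller glia marker was above 0). Of the 10 endothelial markers, 5 had a log2 fold above 0 at ZT13 (median -0.01) and 5 at ZT17 (median -0.04), none with such a p. At ZT1 3 of them were above 0 (median -0.05, 4 without the lens libraries), and at ZT21 7 were (median 0.09). Of the 6 rod markers, 1 had such a p at each of these 4 times (3 at ZT17 without the lens libraries), all 6 being lower in diabetic retinas. The 6 lens markers had such a p at ZT1, ZT17 and ZT21, the times of the 3 control libraries with lens RNA, and were lower there in diabetic retinas. Without those libraries 0, 1 and 0 lens markers had such a p, and 5 were above 0 at ZT1. The part of these markers in the values of the 10 genes was not tested.

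**Figure D3:**
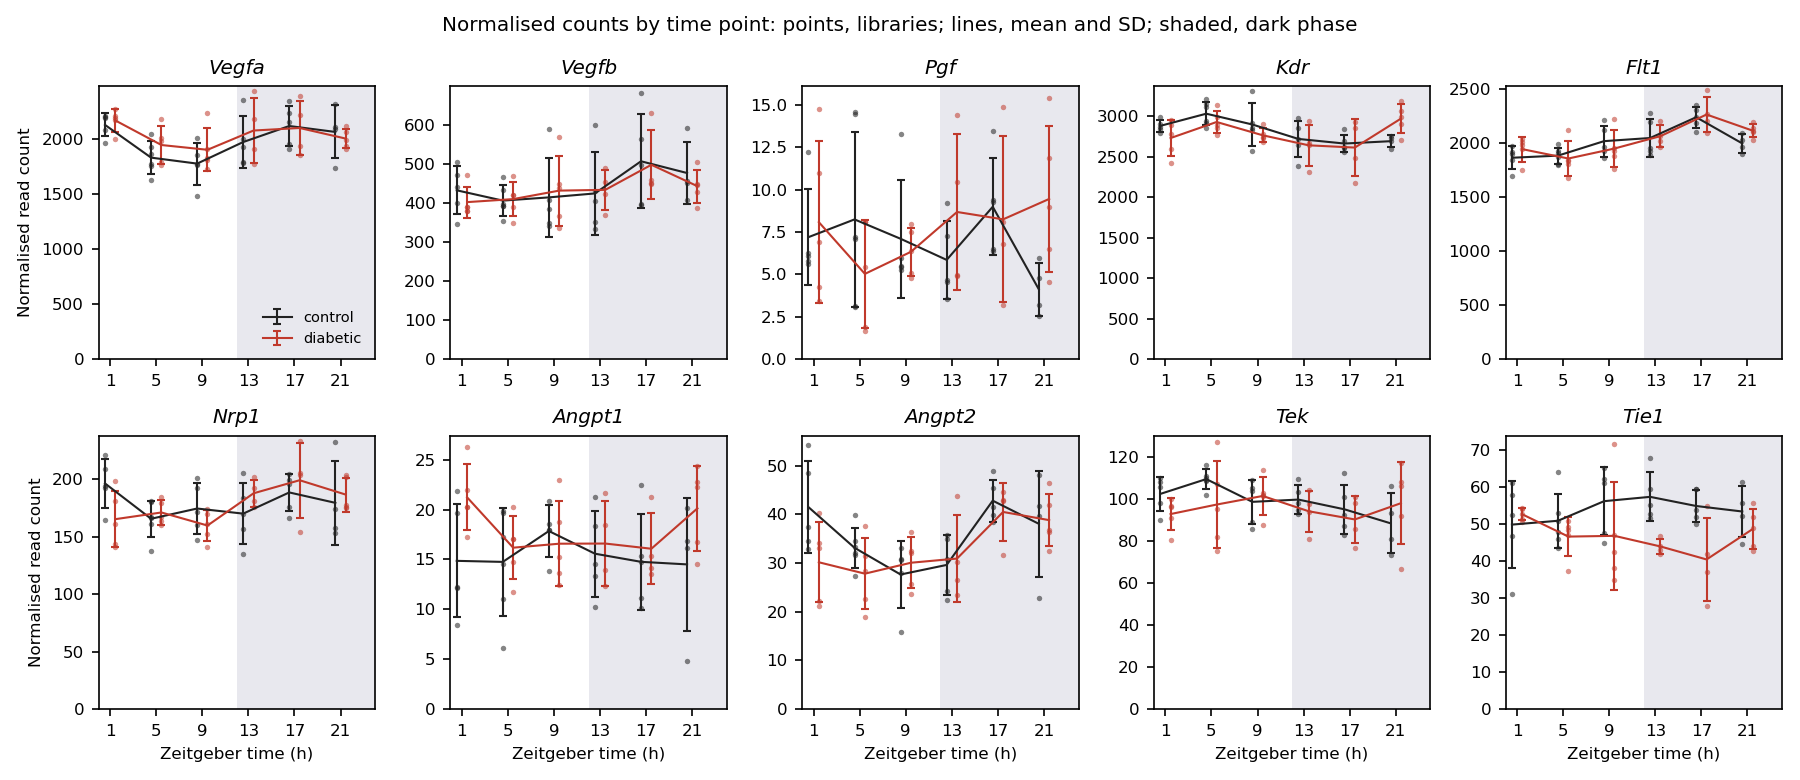
Normalised read counts of the 10 genes against Zeitgeber time in hours, with a point per library, lines through the group means and bars of 1 SD, in control (black) and diabetic (red) retinas; the dark phase is shaded. Flt1 peaks at ZT17 in both genotypes, and the Tie1 means of diabetic retinas lie under those of controls from ZT5 to ZT21.

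The third question was which of the genes changed over the day. In an F test of the 6 time points in edgeR, Flt1 was the only one of the 10 genes past adjustment in control retinas, where 9.25% of all genes passed, and again the only one in diabetic retinas, where 10.2% passed. In control retinas Flt1 had 1689, 1837, 1896, 1917 and 1967 normalised counts at ZT1 and 2099, 2187, 2242, 2306 and 2345 at ZT17. Every ZT17 retina stood above every ZT1 retina, and the ZT17 mean was 1.20 times the ZT1 mean. In diabetic retinas Flt1 had 1677, 1804, 1835, 1838 and 2118 at ZT5 and 2091, 2203, 2265 and 2484 at ZT17. The ZT17 mean was 1.22 times the ZT5 mean, with an overlap of 1 retina. The time points set against each other here and below are those of the lowest and highest of the 6 means. They were picked from the same values, which favours a gap, and the share of all genes with such a gap is not given here.

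The adjusted edgeR p of Flt1 over the 6 time points was 0.0109 in control and 0.0106 in diabetic retinas. The diabetic call was lost without diabetic ZT17 replicate 3 (adjusted p = 0.0635). The ZT17 libraries were also the deepest, and the part of depth in this result was not tested. Without the 3 libraries with lens RNA, Angpt2 (adjusted p = 0.0420 in edgeR) and Vegfa (0.0325) joined Flt1 (0.0130) in control retinas. Leaving out control ZT21 replicate 2 alone gave these same 3 genes, and leaving out control ZT13 replicate 5 or control ZT9 replicate 4 gave Flt1 and Vegfa. With a replicate block Vegfa (adjusted p = 0.0208 in edgeR) joined Flt1 in control retinas. DESeq2 called Flt1 and Kdr (adjusted p = 0.0491) in control retinas and Flt1 in diabetic retinas.

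A rhythm of 24 h was sought with a rank test against cosine-like waveforms whose p came from random permutations (a re-implementation of empirical JTK_CYCLE), called at an unadjusted p under 0.05 with a fold above 1.25 between the highest and lowest library. By this rule 5 of the 10 genes were rhythmic in control retinas, beside 21.8% of all expressed genes, and 4 in diabetic retinas, beside 23.9%. After adjustment over all expressed genes 3 remained in control retinas (Angpt2, Flt1 and Kdr), beside 8.23%, and 1 in diabetic retinas (Flt1), beside 10.3%. The cosine fitted in edgeR gave other counts after adjustment. It called 4 genes in control retinas (Vegfa, Kdr, Flt1 and Angpt2), beside 12.5% of all genes, and 2 in diabetic retinas (Flt1 and Angpt2), beside 14.5%. The adjusted edgeR p of Vegfa in control retinas was 0.0226, and that of Angpt2 in diabetic retinas was 0.0352. Without the filter on low counts this test called 3 genes in control retinas, losing Kdr, and 1 in diabetic retinas, losing Angpt2. Angpt2 and Flt1 were rhythmic in both genotypes, 2 of the 10 genes beside 11.9% of all genes. With the fold taken between time point means, the call kept 1 gene in control (Angpt2) and 2 in diabetic retinas (Angpt2 and Tie1).

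Among the ligands, Vegfa was rhythmic in control retinas, with its peak (acrophase) at ZT20.2 ± 0.991 h (SE) and a relative amplitude of 9.15 ± 2.46% (SE) of its mean. Its rank test p was 0.0131, and the call was lost without the ZT5 (permutation p = 0.0895) or the ZT9 retinas (0.104). In control retinas it had 1960, 2081, 2186, 2192 and 2206 normalised counts at ZT1 and 1482, 1765, 1766, 1851 and 2005 at ZT9, overlapping in 1 retina. In diabetic retinas the fitted amplitude was 3.83 ± 2.52%, and the rank test p was 0.202. Vegfb was not called by it in either genotype (permutation p = 0.104 and 0.101), and Pgf was not (0.800 and 0.477). Vegfb passed in control retinas without control ZT9 replicate 4 (permutation p = 0.0286) or control ZT13 replicate 4 (0.0395), and in diabetic retinas without diabetic ZT1 replicate 4 (0.0307) or diabetic ZT5 replicate 4 (0.0496).

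The VEGF receptors were rhythmic in control retinas, Kdr with its peak in the light and Flt1 in the dark, and both lost the call when the fold was taken between time point means. Kdr peaked at ZT5.24 ± 0.872 h (SE), in the light, with a relative amplitude of 6.59 ± 1.44% and a rank test p of 0.000552. Flt1 peaked at ZT15.6 ± 0.818 h, in the dark, with 7.76 ± 1.57% and a p of 0.00106. Without the ZT17 retinas Flt1 was not called (permutation p = 0.104). In control retinas Kdr had a lowest, median and highest normalised count of 2855, 3027 and 3206 at ZT5, above all of the values 2562, 2604, 2615, 2690 and 2835 at ZT17.

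In diabetic retinas Flt1 peaked at ZT17.2 ± 0.728 h with an amplitude of 8.95 ± 1.73% (permutation p = 0.00108). Kdr was not called there (permutation p = 0.111, amplitude 4.15 ± 2.24%), though it was without the ZT1 retinas (0.0297), diabetic ZT1 replicate 5 (0.0496) or diabetic ZT13 replicate 1 (0.0407). Nrp1 was called only in diabetic retinas, with an acrophase of ZT17.3 ± 1.12 h, an amplitude of 9.73 ± 2.90% and a p of 0.00914. The call was lost without the ZT17 retinas (permutation p = 0.0529) and with the fold of time point means. Its p in control retinas was 0.478, and the difference between the genotypes was not past any threshold, as given below.

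Angpt2 had the largest amplitude of the called genes. In control retinas it reached 20.8 ± 5.40% (SE), with an acrophase of ZT21.3 ± 0.938 h and a rank test p of 0.00106. It had 15.9, 27.9, 30.5, 30.8 and 33.1 normalised counts at ZT9 and 38.4, 39.8, 41.6, 45.3 and 48.9 at ZT17 in control retinas. These groups did not overlap, and the ZT17 mean was 1.55 times the ZT9 mean. In diabetic retinas the amplitude was 18.7 ± 5.48%, the acrophase ZT18.3 ± 1.13 h and the p 0.0384. That call was lost without any 1 of 7 diabetic libraries (ZT5 replicates 1 and 2, ZT17 replicates 1, 3 and 5, ZT21 replicates 1 and 2), with p between 0.0582 and 0.0772. It was also lost without the ZT5 (permutation p = 0.0743), the ZT17 (0.159) or the ZT21 retinas (0.242). Angpt1 was not called in control (permutation p = 0.858) or diabetic retinas (0.145).

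Tek was called in control retinas, with an acrophase of ZT5.99 ± 1.36 h and an amplitude of 7.26 ± 2.52%. Its p there was 0.0236 in the rank test and 0.103, unadjusted, in the edgeR cosine test. The call was lost without control ZT5 replicate 4, 5 or 6 (p between 0.0520 and 0.0578) and without all ZT5 retinas (permutation p = 0.453). Its rank test p in diabetic retinas was 0.888, with an amplitude of 2.98 ± 3.81%. Tie1 was called in diabetic retinas alone by this rule, with an acrophase of ZT1.95 ± 1.85 h and an amplitude of 9.38 ± 4.70%. Its p there was 0.0208 in the rank test and 0.131, unadjusted, in the edgeR cosine test. In diabetic retinas Tie1 had 50.6, 51.3, 52.6, 54.0 and 54.4 normalised counts at ZT1, a narrow group above most of the ZT17 values given earlier. The call was lost without diabetic ZT17 replicate 4 (permutation p = 0.0582) or replicate 5 (0.0519). It was also lost without the ZT1 (permutation p = 0.293, amplitude 6.83%) or the ZT13 retinas (0.0696). In control retinas the rank test p was 0.411.

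**Figure D4:**
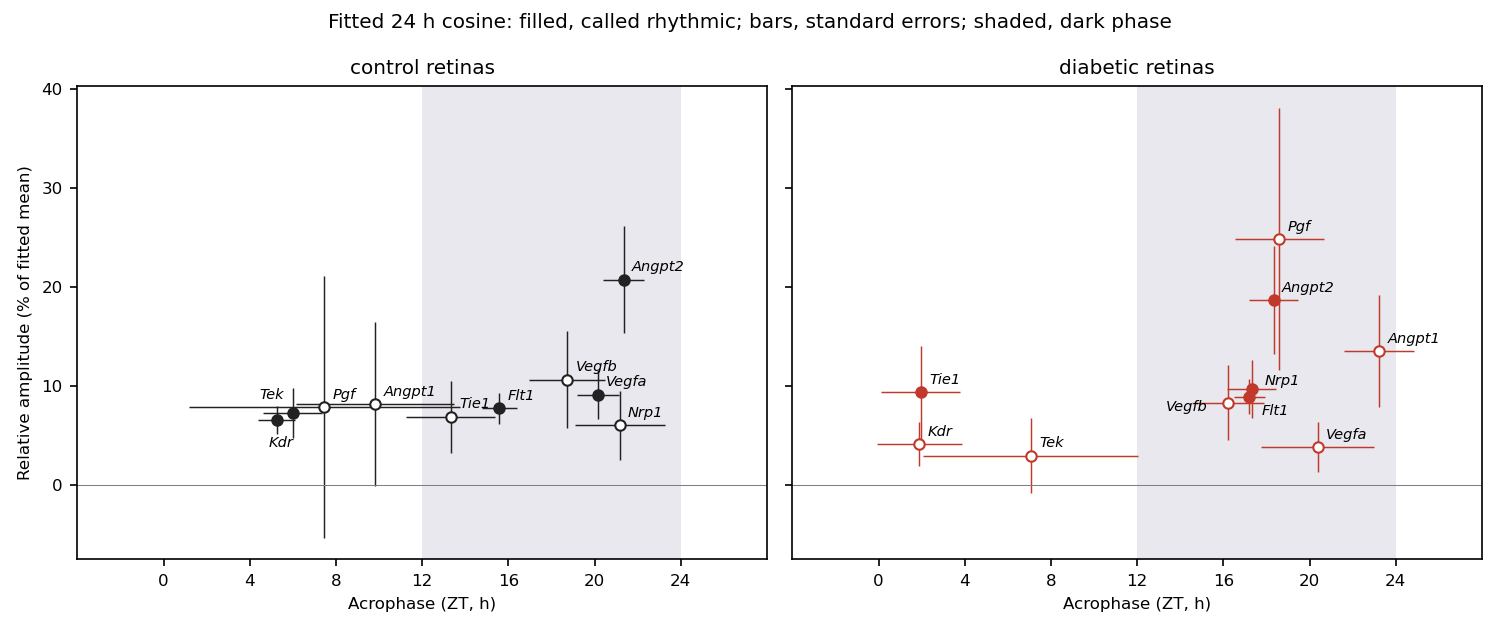
Acrophase (ZT in hours) against relative amplitude (percent of the fitted mean) of the cosine fitted to each gene, in control (left) and diabetic retinas (right), with bars of 1 SE and filled points for genes called rhythmic; the acrophase of an open point marks no called rhythm. In control retinas Kdr and Tek peak in the light and Flt1, Vegfa and Angpt2 in the shaded dark phase.

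A gene called in only 1 genotype need not differ between them, so the difference in rhythm was tested itself, as the interaction of genotype with the cosine terms in edgeR. With a replicate block 10 of 18814 genes passed adjustment, and without the filter on low counts 3 of 37233 did, none of them among the 10 followed here. In the main fit none of the 10 genes passed adjustment, and neither did any other gene (0.0% of 18814). At an unadjusted p under 0.05 there was 1, Tie1, with an edgeR p of 0.0454, beside 3.48% of all genes, and none did in DESeq2 (Tie1 at 0.0609) or in edgeR without the filter on low counts (0.0606). Tie1 was not called rhythmic in control retinas, so its fitted acrophase there marks no rhythm and no phase difference is given. The unadjusted p was 0.134 for Angpt2, 0.179 for Kdr, 0.221 for Nrp1, 0.311 for Flt1, 0.314 for Vegfa and 0.672 for Tek. The acrophase, diabetic minus control, differed by -3.01 ± 1.47 h (SE) for Angpt2 and by 1.63 ± 1.10 h for Flt1.

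Other cell types in the libraries also varied over the day. The F test over time points was passed by 9.25% of all genes in control and 10.2% in diabetic retinas. Of 7 pigment epithelium markers, 4 passed it in control and 5 in diabetic retinas. Their summed level ran from 18.8 to 93.8 CPM at ZT1 and ZT5 and from 37.6 to 191 CPM at the other times in control retinas. In diabetic retinas it ran from 17.2 to 52.3 CPM at ZT1 and ZT5 and from 47.7 to 204 CPM at the other times. Of 7 Muller glia markers, 1 passed in control (0 without the lens libraries) and 3 in diabetic retinas, and their sum was highest at ZT17 in both genotypes, with means of 3309 and 3291 CPM against lowest means of 2770 and 2728 CPM. The part of either in the rhythms of the 10 genes was not tested. Of the endothelial markers, 1 of 10 passed in each genotype, Cldn5, and their sum by group averaged 64.7 to 71.5 CPM in control and 61.8 to 72.1 CPM in diabetic retinas. By the rhythm rule 1 of these 10 was called in control retinas, beside 21.8% of all expressed genes, and 4 in diabetic retinas, beside 23.9%. In control and diabetic retinas, this rule called 4 and 5 of 7 Muller glia and 4 and 5 of 6 tested pigment epithelium markers. It called 2 and 2 of 7 pericyte, 1 and 2 of 6 rod, 1 and 1 of 5 tested microglia and 0 and 1 of 3 astrocyte markers. The part of the endothelial markers in the rhythms of the 10 genes was not tested. Of the 7 pericyte markers, none passed the F test in edgeR in either genotype. At an unadjusted p under 0.05 there were 1 in control (0 without the lens libraries) and 2 in diabetic retinas. Of the 6 rod markers 1 passed in each genotype, Sag, and the tested blood marker Hbb-bs passed in diabetic retinas (adjusted p = 0.000827 in edgeR). No astrocyte or microglia marker passed in either genotype. The part of these markers in the rhythms of the 10 genes was not tested. All 6 lens markers passed in control retinas, where the 3 libraries with lens RNA lie, and none in diabetic retinas, whereas 0 and 4 passed without those libraries.

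Ratios between partners were taken within each library, where depth cancels, as log2 ratios of read counts. A ratio of counts also depends on gene length and is not a ratio of molecules. Of the 3 ratios, none differed between genotypes after adjustment over the 3. Angpt2 to Angpt1 was 1.20 ± 0.72 in control (SD, n = 30) and 0.85 ± 0.54 in diabetic retinas (SD, n = 28) on the log2 scale, 2.30 and 1.80 as ratios. The difference of -0.35 had a two-sided permutation p of 0.0412, adjusted to 0.0919, and without the lens libraries the adjusted p was 0.153. Tie1 to Tek was -0.89 ± 0.28 in control and -1.03 ± 0.28 in diabetic retinas on the log2 scale, with a permutation p of 0.0613 that was also adjusted to 0.0919. Without control ZT1 replicate 3 the Tie1 to Tek difference was -0.17 with an adjusted permutation p of 0.0403.

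Flt1 to Kdr was -0.50 ± 0.18 in control and -0.46 ± 0.19 in diabetic retinas on the log2 scale, with a permutation p of 0.485. This ratio also varied between time points, which was not tested. In control retinas it was lowest at ZT5, between -0.83 and -0.59, and highest at ZT17, between -0.37 and -0.15. In diabetic retinas it was between -0.83 and -0.45 at ZT5 and between -0.45 and 0.06 at ZT17. In both genotypes all ZT17 retinas stood above all ZT5 retinas, in diabetic retinas only just (-0.448 at ZT17 against -0.451 at ZT5). As ratios of counts, the means were 0.621 at ZT5 and 0.840 at ZT17 in control and 0.632 and 0.870 in diabetic retinas.

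**Figure D5:**
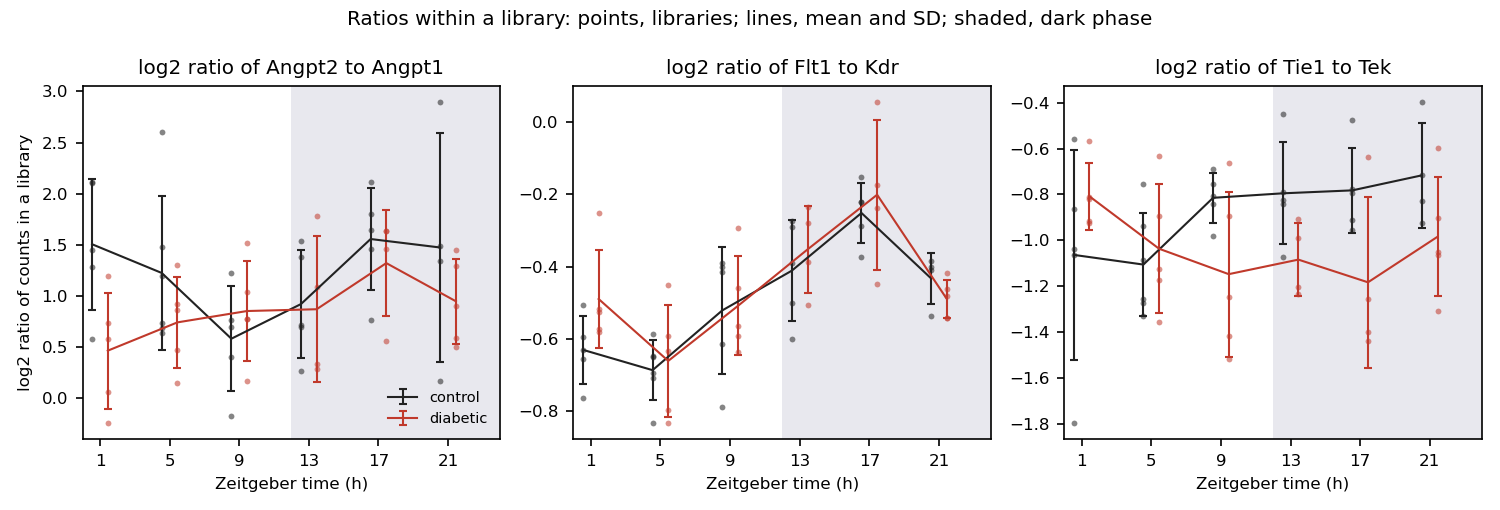
Log2 ratio of read counts within a library against Zeitgeber time in hours for Angpt2 to Angpt1, Flt1 to Kdr and Tie1 to Tek, with a point per library and lines and bars for means and SD in control (black) and diabetic (red) retinas. The Flt1 to Kdr ratio is highest at ZT17 in both genotypes.

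The remaining genes of the family were counted as a list of 7, namely the lymphatic ligands Vegfc and Vegfd, their receptor Flt4, the co-receptor Nrp2, the ligand Angpt4, the phosphatase Ptprb that acts on TEK, and the semaphorin receptor Plxnd1. Of the 6 tested between genotypes over all time points 1 was called (3.41% of all genes were), Vegfc, which rose in diabetic retinas. Vegfc had 32.8 ± 6.19 normalised counts in diabetic (SD, n = 28) and 26.9 ± 6.78 in control retinas (SD, n = 30). Its log2 fold was 0.28 (95% interval 0.11 to 0.45), with an adjusted edgeR p of 0.0443. It was past adjustment in 21 of 58 fits that each left out 1 library (highest adjusted p = 0.0708), and not without the lens libraries (0.0677) or with a replicate block (0.0674). It was past adjustment in 1 of 6 fits that each left out a time point (highest adjusted p = 0.213). Flt4 had 112 ± 19.1 in diabetic and 128 ± 21.5 in control retinas, with a log2 fold of -0.18 and an adjusted edgeR p of 0.104. Ptprb had a log2 fold of -0.06, Plxnd1 of 0.07, Nrp2 of 0.0085 and Angpt4 of -0.02, none past adjustment. The median log2 fold of the 6 was -0.0045, beside 0.0023 for all genes, and that of the 5 tested without the lens libraries was 0.015. Angpt4 was rhythmic in control retinas, with an acrophase of ZT22.3 and an amplitude of 41.0 ± 11.3% on 1 to 22 reads per library, as was Vegfd, 2 of 7 genes beside 21.8% of all expressed genes. Nrp2 was rhythmic in diabetic retinas, 1 of 7 beside 23.9%. After adjustment over all expressed genes the calls of Vegfd and Nrp2 were lost (adjusted permutation p = 0.109 and 0.140). The difference in rhythm between genotypes had an unadjusted edgeR p of 0.0471 for Angpt4, 0.396 for Vegfd and 0.295 for Nrp2, none past adjustment.

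Downstream of the receptors, 17 of 19 signalling genes were tested between genotypes and none was called in edgeR, with 3 at an unadjusted p under 0.05, a share near the 16.2% of all genes, and a median log2 fold of 0.02. The 3 with the smallest p were Shb, an adaptor of KDR (log2 fold 0.24, adjusted edgeR p 0.0584, and 0.0472 without the lens libraries), Prkca, protein kinase C alpha (-0.06, 0.164), and Nos3, the endothelial nitric oxide synthase (-0.13, 0.245). Of 11 genes listed for endothelial tip and stalk cells, 9 were tested and 2 were called, beside 3.41% of all genes. Both were higher in diabetic retinas, and the median log2 fold of the 9 was 0.06. Which cells of the whole retina their reads came from was not tested. Nrarp, a feedback regulator of Notch signalling, had 149 ± 19.9 normalised counts in diabetic (SD, n = 28) and 126 ± 20.2 in control retinas (SD, n = 30), a log2 fold of 0.24 (95% interval 0.13 to 0.35) and an adjusted edgeR p of 0.00718. It was past adjustment in all 58 fits that left out 1 library and in all 6 that left out a time point. Notch4, a Notch receptor of endothelium, had 70.3 ± 14.4 and 60.7 ± 8.78, a log2 fold of 0.21 (0.08 to 0.35) and an adjusted edgeR p of 0.0486. It was past adjustment in 19 of the 58 fits, and not without the lens libraries (adjusted p = 0.0827) or with a replicate block (0.0919). It was so in 1 of the 6 fits that left out a time point (highest adjusted p = 0.268). Hey1, a Notch target, had a log2 fold of 0.11 and an adjusted edgeR p of 0.331. Of the 8 genes of oxygen sensing none was called in edgeR or at an unadjusted p under 0.05, with a median log2 fold of -0.01. The 3 with the smallest p were Vhl (-0.05), Egln1 (-0.08) and Arnt (0.03). Over the time points, Egln1 passed the F test in both genotypes and Hif1an in diabetic retinas. These were 1 and 2 of the 8, beside 9.25% and 10.2% of all genes in control and diabetic retinas. Without the lens libraries Epas1 joined Egln1 in control retinas.

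Beside these genotype results, none of the 10 endothelial, 6 tested pericyte, 7 Muller glia, 6 rod or 3 astrocyte markers was called between genotypes in edgeR. At an unadjusted p under 0.05 there were 3 of the rod, 1 of the Muller glia (2 without the lens libraries) and 1 of the astrocyte markers. The log2 fold was below 0 for all 6 rod markers, with a median of -0.07. Of 6 tested pigment epithelium markers none was called in edgeR and 1 had an unadjusted p under 0.05, with a median log2 fold of -0.17. Of the 5 tested microglia markers 1 was called, Cx3cr1, at a log2 fold of -0.22 (adjusted p = 0.0409 in edgeR, 0.0680 without the lens libraries), past adjustment in 38 of 58 fits that left out 1 library and in 0 of 6 that left out a time point (adjusted p between 0.0557 and 0.121). All 5 had a log2 fold below 0, with a median of -0.10, and 2 an unadjusted p under 0.05. The summed microglia markers were at 15.3 to 24.9 CPM in control and 14.2 to 24.4 CPM in diabetic retinas. The part of these markers in the values of the 10 genes was not tested.

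Over the 58 libraries, the log2 CPM of the 10 genes were compared with those of 13021 genes with a mean of at least 50 reads. These correlations describe libraries that share depth, time point and genotype. Flt1 was most like Epas1 (Pearson r = 0.825, Spearman rho = 0.806), Igf1r (r = 0.812) and Cdh2 (r = 0.794). Epas1 encodes a hypoxia-inducible transcription factor. Vegfb was most like Mlf2 (r = 0.916, rho = 0.888), C1ql1 (r = 0.914) and Dnm1 (r = 0.908), and Vegfa most like Slc25a22 (r = 0.758, rho = 0.747), Ppp1r13l (r = 0.754) and Tjap1 (r = 0.740). Angpt2 was most like Cox4i2 (r = 0.669, rho = 0.678), Kif13a (r = 0.659) and Pdgfrb (r = 0.658), of which Pdgfrb marks pericytes.

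The other genes had weaker best matches. Kdr was most like Gart (r = 0.630), Sqle (r = 0.624) and Hmgb2 (r = 0.617), and Nrp1 most like S100a10 (r = 0.580), Pygb (r = 0.562) and Map3k5 (r = 0.559). Tie1 was most like Dtd2 (r = 0.575), Slc39a3 (r = 0.575) and Slc7a4 (r = 0.574). Tek was most like Zbtb49 (r = 0.532), Apmap (r = 0.520) and Zfp110 (r = 0.518). The low-count genes Pgf (Shc1, r = 0.522, Aebp1, r = 0.488, and Rab37, r = 0.487) and Angpt1 (Fnbp1l, r = 0.497, Onecut2, r = 0.448, and Dpyd, r = 0.433) had the weakest. Among the 10 genes themselves the highest r was 0.550 between Vegfb and Flt1, followed by 0.519 between Vegfa and Vegfb and 0.460 between Vegfa and Angpt2. Kdr was nearest to Tek (r = 0.453) and had r = -0.332 with Vegfa and -0.214 with Flt1.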

How the data were processed

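RNA sequencing of whole retinas was analysed in 58 libraries, grouped by the labelled genotype and Zeitgeber time. The deposited values were whole-number read counts per gene, which the authors made with STAR 2.7.4a and HTSeq 0.11.1 (versions from the submitters' processing notes) after KAPA RNA HyperPrep with RiboErase, a kit that depletes ribosomal RNA. Whether counting used strand is not given in the sources used here.

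Genotype, time and rhythm differences were tested with the quasi-likelihood test of edgeR 4.0.16 (R 4.3.3) on the counts, with edgeR's filter on low counts, TMM scaling and Benjamini-Hochberg adjustment over all genes that passed; DESeq2 1.42.0 was an alternative. Normalised counts are counts over DESeq2 size factors. Rhythms were called by a rank test of 30 waveforms with a period of 24 h against 1000000 shuffled series, in genes with a median above 4 normalised counts, and acrophases and amplitudes came from a fitted cosine. Ratios used counts plus 0.5 and 100000 permutations. Scripts were tested on simulated data. The genes named are the 10 members, those called or of smallest p in each listed pathway, and the 3 genes most correlated with each member. The members, lists and tests were chosen with earlier results of these data known. Intervals and tests cover the libraries at the depths given above, which limit the genes under 20 reads most. Each library was left out in turn, and other scalings, filters and a replicate block were tried.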

Additional observations from a re-analysis of the deposited data

Results flagged for a closer look

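In 7 of 120 groups of 4 to 6 retinas (each gene, genotype and time point) 1 retina stood apart from the others by more than Dixon's 95% limit, and chance alone flags about 1 in 20 groups, which is 6 here. Vegfb stood apart in 3 of them, always high. Its normalised count was 588 in control ZT9 replicate 4 (others 341 to 406), 472 in diabetic ZT1 replicate 4 (others 378 to 390.1) and 629 in diabetic ZT17 replicate 3 (others 449 to 459). The retina with the same number was also the highest of the other genotype at ZT9 (567 in diabetic replicate 4) and at ZT17 (680.1 in control replicate 3). Pgf, on few reads, was at 12.2 in control ZT1 replicate 1 (others 5.61 to 6.25) and at 13.3 in control ZT9 replicate 2 (others 5.29 to 5.99). Angpt2 was at 31.6 in diabetic ZT17 replicate 4 (others 42.7 to 44.7). Tie1 was at 37.3 in diabetic ZT5 replicate 4 (others 47.1 to 50.8).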

How the results depend on the processing

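Between genotypes over all time points the count of 0 genes became 1, Tie1, without ZT1, and ranged from 0 to 1 when each library was left out. At single time points and for the difference in rhythm it was 0 under every alternative run. Of the rhythmic genes, 5 in control retinas became 3 after adjustment over all expressed genes, 1 with the fold of time point means and 3 without ZT5, and 4 to 6 leaving out each library. The 4 in diabetic retinas became 1 after adjustment, 2 with the fold of means and 2 without ZT17, and 2 to 5 leaving out each library, with 2 without diabetic ZT17 replicate 5. Genes differing between time points in control retinas numbered 2 in DESeq2, 3 without the lens libraries and 1 to 3 leaving out each library, and in diabetic retinas 0 to 1. The log2 ratio differences ranged, leaving out each library, from -0.40 to -0.29 for Angpt2 to Angpt1, 0.02 to 0.05 for Flt1 to Kdr and -0.17 to -0.12 for Tie1 to Tek. Leaving out each library, the log2 fold over all time points ran from -0.049 to 0.0035 for Vegfb and from -0.029 to 0.0039 for Nrp1. It changed sign, at adjusted p of 0.82 or more in edgeR, for Vegfb without control ZT17 replicate 3 (0.0035), Flt1 without ZT21 (-0.0031), and Nrp1 without ZT1 (0.040), without ZT9 (0.012), without the lens libraries (0.014), without control ZT1 replicate 6 (0.0017), control ZT21 replicate 2 (0.0039) or diabetic ZT9 replicate 1 (0.00045), and with the replicate block (0.0079). Leaving out the lens libraries, and each time point in the overall genotype comparison, was chosen after seeing the data. The cause was not tested for any of these changes.

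With the replicate block, 2 genes differed between time points in control retinas (Flt1 and Vegfa) and 1 in diabetic retinas, and none between genotypes. Of 26 control and diabetic pairs with the same time and number, 20 had correlated deviations over 0.1 and the lowest was -0.46. The median was 0.26 for these pairs, 0.19 for the same number in different groups and -0.034 for different numbers, so retinas of 1 number deviated together in part. The numbers were not taken to pair the retinas, since not every pair passed 0.1 and the labels do not say what a number marks. The main tests therefore held no term for the number. Of all genes, 2469 differed between time points in control retinas with the block in edgeR, against 1740 without it. Depth limits Pgf and Angpt1 most.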
